A study of Mus musculus with 2 samples.

Results

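The kinesin and cytoplasmic dynein motor genes were taken by symbol from the mouse annotation: protein-coding genes named Kif followed by a number, Klc1 to Klc4, Dync1 and Dync2 subunits, Dynll1, Dynll2, Dynlrb1, Dynlrb2 and the Dynlt genes. The rule used names and no measured value, and it gave 59 of 21474 protein-coding genes among 43346 annotated gene rows. RNA came from the granule layer of the adult male wild-type mouse cerebellum (C57Bl6, strain B6NCrl, age 8 months), and 2 areas of 18000 square microns each, with a starting quantity of 50 cells, were captured by laser and made into 1 Smart-seq library each. Smart-seq copies and amplifies polyadenylated transcripts along their length from small samples. Both areas carried 1 donor label and the biological replicate numbers 1 and 2, so they formed 1 group of 2 areas with no treated or mutant group beside it, and whether 1 or 2 animals were used was not stated. All spreads below are between these areas, and no p-value between conditions was computed, since 2 areas allow none.

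Kinesins are motor proteins that walk along microtubules, most of them towards the fast-growing plus end, which points away from the cell body in axons. Cytoplasmic dynein 1, a large complex built around a heavy chain, walks towards the minus end and brings cargo back to the cell body, while dynein 2 works in cilia. Another set of kinesins builds and moves the mitotic spindle and is made in dividing cells. Granule neurons of the adult cerebellum do not divide, and each sends a long, thin axon, the parallel fibre, out of the layer where its cell body lies.

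The tables held 19962271 estimated counts on annotated genes in replicate 1 and 19261911 in replicate 2, of which the 59 motor genes took 0.587% and 0.566%. All 8 markers of granule neurons were detected, with a summed level of 2773 transcripts per 1000000 (TPM) in replicate 1 and 3034 in replicate 2, led by Gabra6, a GABA receptor subunit that marks these cells, at 925 and 1086. RNA of other cells was present in both areas. Summed levels in replicates 1 and 2 were 607 and 568 TPM for 6 markers of Bergmann glia and astrocytes, 547 and 666 for 6 of oligodendrocytes, 245 and 358 for 6 of Purkinje cells, 86.7 and 66.0 for 6 of microglia and 179 and 154 for 6 of endothelial and mural cells. The 6 markers of Golgi and other inhibitory neurons summed to 47.1 and 34.9 TPM. The 5 red blood cell markers stood furthest apart, at 5040 TPM in replicate 1 and 390 in replicate 2. Markers of ciliated ependymal cells were at or near 0, with Foxj1, Ak7, Tmem212 and Ccdc153 at 0 in both areas and a sum of 0.53 TPM in replicate 2.

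Start regions of the mitotic kinesins are shown first, because one short element was found in most of them and in few of the other motor genes. Cell cycle genes often carry a short element called the cell cycle genes homology region, with the letters TTTGAA, near the start of transcription, and many also carry a CCAAT box. Start regions from RefSeq on build GRCm38.p6, each running from 250 bases before to 50 bases after a start site, were matched to 45 of the 59 members by symbol and gave 51 regions. Searches on both strands covered the element TTTGAA, its variant with the letters TTCGAA, the box with the letters CCAAT, and the GC box, whose letters are GGGCGG. A match describes these windows and is not evidence of binding.

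TTTGAA was found in 9 of 11 start regions of mitotic kinesins (81.8%) and in 3 of 40 regions of the other members (7.5%), against 17.9% of all 32851 start regions of the same length and 15.2% of the 20150 regions of protein-coding genes. In 7 mitotic kinesins a match began within 25 bases of the start site, on either side of it, whereas 2.65% of all start regions held one that near, and among the other members 1 did (Kif26b). That distance was chosen after the positions were seen. The 7 windows of 30 bases are printed along the gene, 5′ to 3′, with the match in capitals. TTCAAA is the same element on the opposite strand, and in Kif20b the capitals mark the first of a pair of matches.
Kif11, chr19:37376351-37376380, plus strand: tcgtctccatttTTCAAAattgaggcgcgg
Kif15, chr9:122951050-122951079, plus strand: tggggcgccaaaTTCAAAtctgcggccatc
Kif18b, chr11:102925104-102925133, minus strand: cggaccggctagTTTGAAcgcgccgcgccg
Kif20b, chr19:34922353-34922382, plus strand: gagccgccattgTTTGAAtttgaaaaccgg
Kif22, chr7:127042420-127042449, minus strand: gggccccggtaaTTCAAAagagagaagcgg
Kif23, chr9:61946780-61946809, minus strand: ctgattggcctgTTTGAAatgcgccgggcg
Kif4, chrX:100626072-100626101, plus strand: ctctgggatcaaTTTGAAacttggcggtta
In Kif11, Kif15 and Kif22 the element lay on the opposite strand and began 19, 19 and 17 bases before the RefSeq start. Counted from the RefSeq start, it began at base 3 in Kif23, base 4 in Kif18b, base 8 in Kif20b and base 20 in Kif4. These sides depended on the annotation. The RefSeq starts of Kif15 and Kif22 lay 35 and 51 bases inside the GENCODE gene, so their matches fell within that gene. The RefSeq start of Kif23 lay 25 bases before the GENCODE gene, and so did its match lie outside it. Kif15 held a further match 234 bases before its start and Kif22 one 215 bases before.

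The matches in Kif14 and Kif2c were 228 and 103 bases before the RefSeq start. For both genes that start lay inside the gene, 1505 and 3867 bases downstream of the first base of the GENCODE gene, and these regions held 3 and 2 CpG dinucleotides, against a median of 25 over the mitotic kinesins. For Kif4 the RefSeq start lay 328 bases downstream, and for the other mitotic kinesins the starts were at most 51 bases apart. Kif18a and Kif2b did not hold these letters in their windows. Among the other members the matches were in Kif26b, Kif27 and 1 of the 2 regions of Kif1a, a region whose start lay 19471 bases inside the gene. The letters CCAAT occurred in 7 of 11 mitotic regions (63.6%), 4 of 8 axonal ones (50%) and 37.4% of all start regions. The 8 axonal regions came from 6 genes, and the overlapping regions of Kif1b were both counted. GGGCGG occurred in 37 of the 51 members' regions (72.5%) and in 47.8% of those of protein-coding genes, and TTCGAA in no mitotic region and 1.56% of all regions.

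The 250 bases before the start are printed whole for 1 gene of each kind. Kif11 encodes the motor that pushes the spindle poles apart, and Kif5c a transport motor that was abundant here. Capitals mark every match on either strand to the element TTTGAA, to the CCAAT box or to the GC box.
Kif11, chr19:37376132-37376381, plus strand: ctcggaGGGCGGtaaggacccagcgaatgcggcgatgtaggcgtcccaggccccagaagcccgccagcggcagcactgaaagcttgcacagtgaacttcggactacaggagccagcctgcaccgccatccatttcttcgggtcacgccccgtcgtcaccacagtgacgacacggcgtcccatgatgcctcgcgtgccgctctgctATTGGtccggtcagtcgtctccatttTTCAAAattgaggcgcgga
Kif5c, chr2:49619036-49619285, plus strand: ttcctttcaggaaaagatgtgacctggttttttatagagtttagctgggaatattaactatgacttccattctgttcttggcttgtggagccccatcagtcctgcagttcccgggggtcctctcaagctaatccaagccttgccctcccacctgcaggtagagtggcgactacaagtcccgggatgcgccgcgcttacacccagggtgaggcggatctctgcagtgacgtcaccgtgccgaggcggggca
In Kif11 the 3 matches were a GC box at the upstream end, a CCAAT box on the opposite strand and, closest to the start, the TTCAAA letters. None of the 3 kinds was found in the 250 bases of Kif5c, but a GC box began at base 4 after its start, beyond the printed stretch. The letters GGGCGG occurred in 5 of 8 axonal regions (62.5%), with both overlapping regions of Kif1b counted, and 6 of 11 mitotic ones (54.5%). The whole region of 300 bases held 28 CpG dinucleotides in Kif11 and 14 in Kif5c. The median was 7 over all start regions and 14 over those of protein-coding genes.

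**Figure D1:**
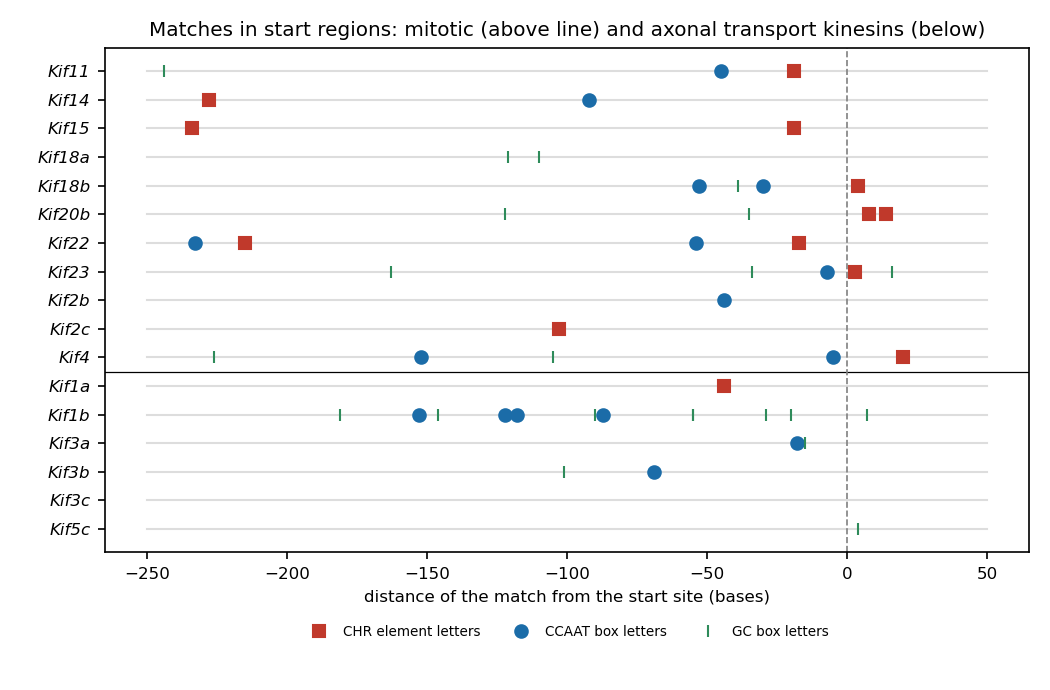
Matches to the letters TTTGAA (squares), CCAAT (circles) and GGGCGG (bars) by distance of the first matching base from the RefSeq start site, in bases, with 1 line for each gene (both start regions together for Kif1a and Kif1b). Squares lie within 25 bases of the start in 7 of the 11 mitotic kinesins above the line and in none of the 6 axonal transport kinesins below it.

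The comparison between axonal transport and mitotic kinesins set 8 genes of the kinesin-1, kinesin-2 and kinesin-3 classes against 12 spindle and cytokinesis kinesins. Further kinesins of these classes, Kif13b, Kif13a, Kif16b, Kif1c and Kif17, were placed in another list. They ranged from Kif13b, at 8.01 TPM in replicate 1 and 7.50 in replicate 2, down to Kif17, at 0.19 in both. No alternative run put these genes in the axonal list. TPM is a level per transcript length, so genes can be set beside each other on it. All 8 axonal kinesins were detected in both areas (TPM of at least 1 and 5 or more counts in each), and 2 of the 12 mitotic ones were, where 50.4% of all protein-coding genes met the same rule. The median level was 79.5 TPM in replicate 1 and 68.5 in replicate 2 for the axonal kinesins, 0.085 and 0.090 for the mitotic kinesins, and 1.42 and 1.38 for all protein-coding genes. On the scale of log2(TPM + 1) the axonal mean lay 5.05 ± 0.04 (SD, n = 2) above the mitotic mean, 5.08 in replicate 1 and 5.02 in replicate 2, which is 33.1-fold on that scale. Summed TPM was 814 against 11.2 in replicate 1, a ratio of 73.0, and 717 against 10.6 in replicate 2, a ratio of 67.6. The pseudocount of 1 sets much of the size of the log difference, because most mitotic kinesins were near 0: it was 7.12 with a pseudocount of 0.1 and 3.34 with 5.

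The 2 lists still met at their edges. Kif22 (chr7:127027729-127042471, minus strand, GRCm38), a chromokinesin that binds chromosome arms, was the highest of the mitotic list at 6.51 TPM in replicate 1 and 6.94 in replicate 2. Kif3c, at 5.82 and 4.32, was below it in both areas, and Kif3b, at 4.97 and 7.06, was below it in replicate 1. The other 6 axonal kinesins were above every kinesin of the mitotic list in both areas. Kif2a, which also has mitotic roles, was placed in another list. At 45.7 TPM in replicate 1 and 45.5 in replicate 2, it was above Kif5a, Kif3b and Kif3c. No alternative run put Kif2a in the mitotic list.

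Kif1b was the highest kinesin of all. It carries mitochondria and synaptic vesicle precursors. The gene (chr4:149176319-149307693, minus strand, GRCm38) stood at 301 TPM in replicate 1 and 255 in replicate 2, from 25923 and 22602 counts, at the 98.2 percentile of protein-coding genes. Kif1a, the main carrier of synaptic vesicle precursors and dense core vesicles, came next at 226 and 192 TPM. Both were higher in replicate 1. The kinesin-1 heavy chains, which move mitochondria, vesicles and many other cargoes, followed: Kif5b, made in most tissues, stood at 91.6 and 97.1 TPM. Kif5c, a neuronal form, stood at 83.7 and 76.4 TPM, and Kif5a, the other neuronal form, at 26.4 and 24.9. The ranges of Kif5b and Kif5c did not overlap between the areas, and Kif5a was below both in each. Kinesin-2 is built from Kif3a with Kif3b or Kif3c: Kif3a stood at 75.3 and 60.7 TPM, far above either partner. Kif3b and Kif3c changed places between the areas, so these neighbours did not differ beyond their spread.

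Mitotic kinesins were few and shallow. Kif18a, which dampens chromosome movement at the metaphase plate, stood at 2.46 TPM in replicate 1 and 1.86 in replicate 2, from 89 and 105 counts. Kif20b, a kinesin of cytokinesis, stood at 1.04 and 0.96 and so met the detection rule in replicate 1 only. Kif15 and Kif11, which hold the spindle bipolar, had 37 and 25 counts and 33 and 9 counts, or 0.46 and 0.32 TPM and 0.41 and 0.11 TPM. Kif11 was lower in replicate 2, from few counts in either area. Kif20a, of the central spindle, had 4.58 and 19.8 estimated counts (0.08 and 0.34 TPM), and Kif14, of the midbody, had 10 and 5 (0.07 in both). Kif23, the motor of the centralspindlin complex, had 5 counts in replicate 1 and 0 in replicate 2. Kif4, a chromokinesin, had 2.15 and 0, and Kif2c, a microtubule depolymerase of the kinetochore, had 0 and 1. Kif2b and Kif18b had no count in either area. A count of 0 allows up to 3 counts, which is 0.150 counts per 1000000 in replicate 1 and 0.156 in replicate 2, for counting error only. In pieces of tissue, fewer cells of a type and less RNA per cell cannot be told apart, so these low values do not say how many cells held such RNA.

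Other genes of cell division, from a separate list, were also low: 3 of 14 were detected in both areas, and their sum was 17.4 TPM in replicate 1 and 9.54 in replicate 2. The highest were Racgap1, the partner of Kif23, at 5.70 and 2.89 TPM, Cdk1, the mitotic kinase, at 3.42 and 1.33, and Prc1, which bundles spindle microtubules, at 3.27 and 0.85. Mki67, the proliferation marker, was at 0.04 and 0.02, and Aurkb, Ndc80 and Bub1 had no count. Their sum was lower in replicate 2, and of the 9 with 10 or more summed counts, 5 differed more than 1.5-fold between the areas, where 13.1% of all named genes with such counts did. The directions were mixed: of the 9 genes, 6 were higher in replicate 1 and 3 in replicate 2. Ccnb2, among the 5, was higher in replicate 2, at 0.69 and 1.75 TPM from 17 and 42 counts. Of the kinesins whose names fall outside the rule, Kifc2, a minus-end motor of neurons, was the highest at 5.48 and 5.68 TPM, followed by Kifc3 at 1.76 and 0.98 and Kifc5b at 0.39 and 0.22. The spindle motors Kifc1 and Cenpe were at 0.17 in both areas and at 0.11 and 0.18.

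**Figure D2:**
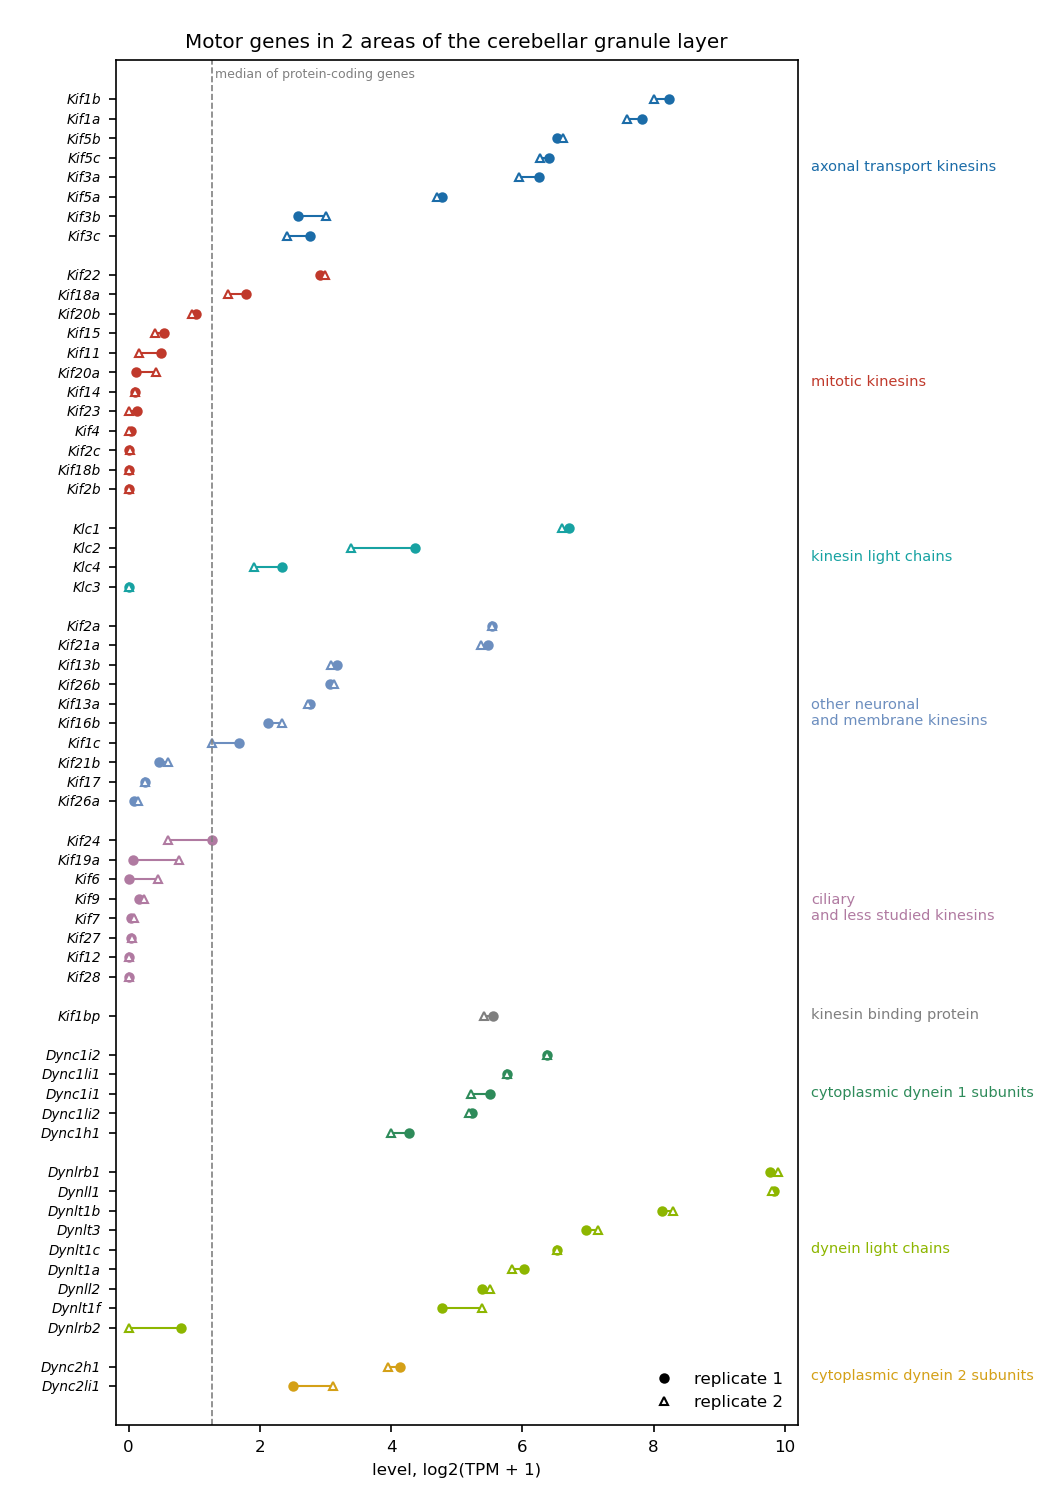
Level of each of the 59 motor genes, as log2(TPM + 1), in replicate 1 (filled circles) and replicate 2 (open triangles) of the granule layer, grouped by role, with a line joining both areas and a dashed line at the median of protein-coding genes. The 8 axonal transport kinesins all lie right of the dashed line, and of the 12 mitotic kinesins only Kif22 and Kif18a do.

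Within families, 1 or 2 paralogs held most of the level. Kif5b made up 47.2% ± 2.49 (SD, n = 2) of the summed TPM of the kinesin-1 heavy chains, Kif5c 40.0% ± 2.11 and Kif5a 12.8% ± 0.381, of a sum of 199.9 ± 2.28 TPM. Kif1b held 57.1% ± 0.0996 of the Kif1a and Kif1b sum of 487 ± 56.3 TPM. In kinesin-2, Kif3a held 85.8% ± 2.30, Kif3b 7.78% ± 2.84 and Kif3c 6.38% ± 0.542, and Kif3a was 6.16 ± 1.16 times as high as its partners summed. With counts divided by the longest coding transcript, a scale described below, that ratio was 4.77 ± 0.557 and the share of Kif3a 82.6%. The reads of Kif3c were partly shared with similar sequence, with a posterior SD of 22.5 and 18.5 counts on 673 and 486.

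Kinesin light chains couple kinesin-1 to its cargo. Klc1, the neuronal light chain, stood at 103 TPM in replicate 1 and 96.3 in replicate 2 and held 85.1% ± 5.18 of the family's TPM. Klc2 stood at 19.6 and 9.47 TPM and Klc4 at 4.04 and 2.75, both higher in replicate 1. Klc3, known from testis, had no count. The kinesin-1 heavy chains summed to 1.71 ± 0.170 times the light chains on the TPM scale and 2.01 ± 0.0103 times on the longest-transcript scale. Kif1bp, whose protein binds kinesin motor domains and is not itself a motor, stood at 45.9 and 41.6 TPM.

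Several of these values depended on how much of a gene's TPM came from short transcripts. TPM sums over all annotated transcripts of a gene, and a few reads on a short one weigh as much as many on a long one. Another scale was set beside it, chosen after the values had been seen, in which the counts of a gene were divided by the length of its longest protein-coding transcript and rescaled to 1000000 over all genes. Genes detected in both areas were higher on it by a median factor of 1.36. Of the 36 detected motor genes, 6 stood more than 1.5-fold off that shift: Klc2, Kif1a, Dynll1, Dynlt1c, Dync2h1 and Kif1b. All 6 were lower on this scale than TPM gave, but dividing by the longest coding transcript largely sets that direction in advance. The share of all detected genes that far off the shift was not computed. Neither length was measured, and values on both scales are given for the genes and ratios that moved most.

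Kif1a was the clearest case among the kinesins. Kif1a-206, a coding transcript of 528 bases, carried 58.8% of the gene's TPM in replicate 1 and 58.0% in replicate 2 but 15.5% and 15.1% of its counts. The full transcript Kif1a-204, of 8206 bases, carried 11.9% and 11.5% of TPM and 59.5% and 56.9% of the counts. On the longest-transcript scale Kif1a stood at 69.8 in replicate 1 and 60.7 in replicate 2, below Kif5c at 129 and 118 and Kif5b at 113 and 110. Kif1b remained the highest kinesin there, at 231 and 209, and its share of the pair was 77.1%, against 57.1% in TPM. The order of Kif5b and Kif5c turned over between the scales, with Kif5b at 40.6% and Kif5c at 45.0% of the family. For Kif5c 1 coding transcript of 6856 bases held 100% and 99.7% of the TPM.

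Kif1b was split among a long coding transcript, Kif1b-203 of 10233 bases, with 37.7% and 40.4% of TPM and 76.1% and 76.9% of counts, and the retained-intron transcripts Kif1b-209 and Kif1b-205. The latter carried 28.4% and 30.3%, and 26.1% and 22.2%, of its TPM. Klc2 rested on 166 and 116 counts, and a retained-intron transcript of 411 bases, Klc2-205, held 72.0% and 66.0% of its TPM. On the longest-transcript scale Klc2 stood at 4.78 and 3.46, which was 3.01% of the light chain family, where Klc1 held 93.3%. In 18 of the 19 members with a mean TPM of at least 10 and 2 or more transcripts, the same transcript led in both areas. The exception was Dync1i1, the neuronal dynein intermediate chain, where Dync1i1-204 led with 39.2% in replicate 1 and Dync1i1-203 with 50.3% in replicate 2. The leading transcript was annotated as not coding in 4 of the 19 (Dynll1, Dynlt1c, Dync2h1 and Klc2).

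Other transport genes were led by long coding transcripts. Kif5b-201, of 6032 bases, held 76.4% of Kif5b TPM in replicate 1 and 65.9% in replicate 2, and Kif3a-203, of 3161 bases, 60.8% and 73.3% of Kif3a. A transcript of 770 bases annotated for nonsense-mediated decay, Kif3a-206, held 27.1% and 17.4% of Kif3a. In Klc1 a pair of coding transcripts of nearly the same length, Klc1-202 and Klc1-203, held 61.8% and 62.1%, and 26.4% and 28.0%. Some smaller shares differed more between areas: Kif21a-205 held 25.1% of Kif21a in replicate 1 and 11.5% in replicate 2, and Kif1bp-206 held 17.1% and 0.04% of Kif1bp. Reads that fit several transcripts were divided by estimation in the deposited tables, so these shares carry an error beyond the spread between areas.

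**Figure D3:**
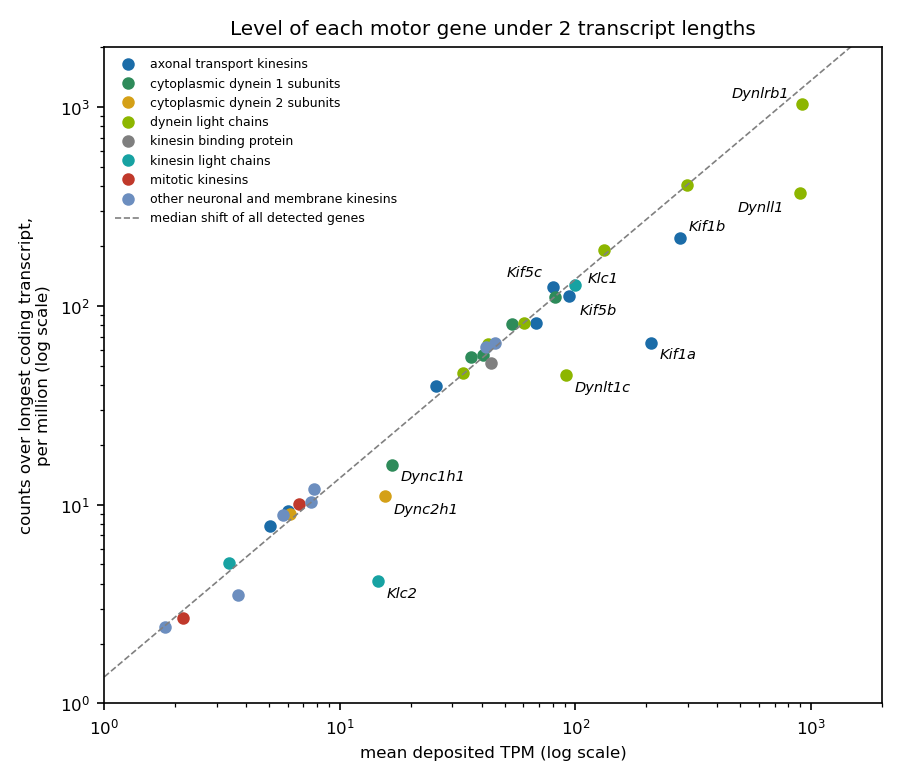
Mean level over both areas of the 36 motor genes detected in both, as deposited TPM (horizontal, log scale) and as counts over the longest protein-coding transcript per 1000000 (vertical, log scale), coloured by role, with a dashed line at the median shift of all detected genes. Klc2, Kif1a, Dynll1 and Dynlt1c lie furthest below the line, and most other members lie on or close to it.

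**Figure D4:**
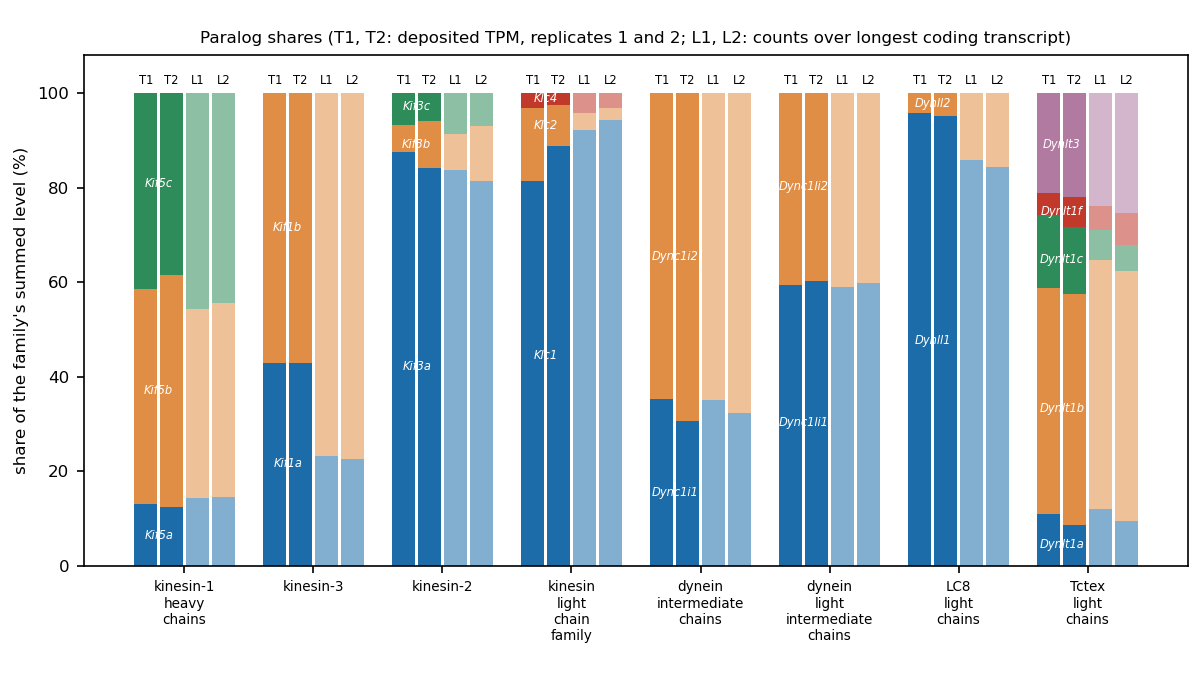
Share of each paralog, in percent, in the summed level of its family, as stacked bars for deposited TPM in replicates 1 and 2 (full colour) and for counts over the longest protein-coding transcript (pale, same order). The bars of both areas resemble each other within a scale, and the shares of Kif1a, Klc2, Dynll2 and Dynlt1c differ most between the scales.

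Beyond the axonal and mitotic lists, 7 of 10 other neuronal and membrane kinesins were detected in both areas. Kif2a, a depolymerase that trims growing axon branches, stood at 45.7 TPM in replicate 1 and 45.5 in replicate 2, and Kif21a, which restrains microtubule growth, at 43.4 and 40.2. These were as high as dynein subunits and above Kif5a. Kif13b, a vesicle motor, stood at 8.01 and 7.50 TPM, and Kif26b, a kinesin without motor activity, at 7.42 and 7.71. Kif13a, an endosomal motor, stood at 5.82 and 5.67 TPM, and Kif16b, which moves early endosomes, at 3.35 and 4.06. Kif1c stood at 2.21 and 1.41 TPM. The remaining 3, Kif21b, Kif17 and Kif26a, lay below 1 TPM in both areas, with Kif17, a dendritic motor, at 0.19 in each. Kif21a was 96.5 ± 24.97 times as high as its paralog Kif21b, which stood at 0.38 and 0.51 TPM from 58 and 59 counts.

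None of the 8 ciliary and less studied kinesins was detected in both areas. Kif24, a centriolar depolymerase that restrains cilium formation, was the highest, with 1.42 TPM in replicate 1 and 0.52 in replicate 2. Kif19a, which sets the length of motile cilia, had 1 count in replicate 1 and 21 in replicate 2. Kif6, Kif9, Kif7 and Kif27 had 8 counts or fewer in each area, and Kif12 and Kif28 had none. Of the markers of ciliated ependymal cells, Foxj1, their defining regulator, was at 0 in both areas, while Dnah5, an axonemal dynein, had 1 count and 21, and Rsph1, of the radial spokes, had 0 and 8, so that both were higher in replicate 2 as Kif19a was. Their part in the difference of Kif19a was not tested.

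Cytoplasmic dynein 1 was present with all 5 subunit genes of its core, at a median of 44.6 TPM in replicate 1 and 36.4 in replicate 2. The heavy chain Dync1h1, which holds the motor, was the lowest at 18.3 and 15.0 TPM, from 2542 and 2366 counts. Of the intermediate chains, which dock the complex on dynactin, Dync1i2 stood at 82.1 and 82.3 TPM and the neuronal form Dync1i1 at 44.6 and 36.4. The light intermediate chains, which bind the adaptors, stood at 53.5 and 53.7 (Dync1li1) and 36.7 and 35.3 (Dync1li2). In each pair the same paralog was higher in both areas, with 67.1% ± 3.21 of the intermediate chains in Dync1i2 and 59.8% ± 0.734 of the light intermediate chains in Dync1li1.

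The accessory chains were present well above the heavy chain. Summed intermediate chains were 7.41 ± 0.669 times the level of Dync1h1 in TPM, and light intermediate chains 5.43 ± 0.684 times. On the longest-transcript scale the ratios were 10.5 ± 0.362 and 8.57 ± 0.173, so the heavy chain was the lowest on both. Dync1h1 has a transcript of 14342 bases, the longest of the members, and it took 97.5% and 98.4% of the gene's counts. Over the 36 detected members, levels were lower for longer genes, with a Spearman rho of -0.41 across genes between mean TPM and effective length. That is a description, since genes are not independent replicates and TPM is itself divided by this length.

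Dynein light chains were the highest motor genes in the layer, with a sum of 2414 TPM in replicate 1 and 2534 in replicate 2 and 8 of 9 detected. Dynlrb1 (chr2:155236533-155250277, plus strand, GRCm38), a roadblock chain, stood at 879 and 955 TPM, at the 99.6 percentile of protein-coding genes, and its paralog Dynlrb2, known from cilia and testis, had 5 counts and 0. Dynll1, the LC8 chain, which also binds many proteins outside dynein, stood at 908 and 890 TPM, and Dynll2 at 40.8 and 44.7. Dynll1 held 95.5% ± 0.341 of the LC8 sum, 21.1 ± 1.66 times Dynll2 on the TPM scale and 5.71 ± 0.424 times on the longest-transcript scale. Its TPM was spread over Dynll1-203, a processed transcript of 539 bases with 39.4% and 38.4%, and the coding Dynll1-202 of 729 bases with 38.1% and 38.2%. The transcript of 2030 bases that sets the second scale held 6.49% and 7.29% of the counts.

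Among the Tctex light chains Dynlt1b stood at 279 TPM in replicate 1 and 314 in replicate 2, and Dynlt3 at 124 and 141. Dynlt1c stood at 91.4 and 91.2 TPM, Dynlt1a at 64.5 and 56.1, and Dynlt1f at 26.2 and 40.7. Dynlt1a, Dynlt1b, Dynlt1c and Dynlt1f are near-identical copies on chromosome 17, so the split of reads among them is uncertain: the posterior SD was 47.6 counts on 3202 for Dynlt1b, 40.5 on 710 for Dynlt1a, 21.1 on 318 for Dynlt1f and 15.1 on 1297 for Dynlt1c in replicate 1. Dynlt3 is a single gene on chromosome X with a posterior SD of 0. None of the counts of Dynlt1c fell on transcripts annotated as coding, and it held 14.9% of the family in TPM and 5.85% on the longest-transcript scale, where Dynlt1b held 52.8%, against 48.3% in TPM.

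Dynein 2, the motor of transport inside cilia, has further subunits whose genes the symbols did not cover, and the 2 genes covered were detected in both areas. Dync2h1, its heavy chain, stood at 16.6 TPM in replicate 1 and 14.5 in replicate 2, and Dync2li1, its light intermediate chain, at 4.67 and 7.64. Dync1h1 was 1.07 ± 0.0450 times Dync2h1 on the TPM scale and 1.43 ± 0.0868 times on the longest-transcript scale. For Dync2h1, transcripts annotated as coding held 36.0% ± 0.445 of the TPM and 65.7% ± 1.32 of the counts, and the leading one, Dync2h1-203, is annotated as a target of nonsense-mediated decay. The coding transcript of 14264 bases, Dync2h1-204, held 56.6% and 48.8% of the counts.

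Most partners of the transport motors were detected. All 12 dynactin subunits, which join dynein to its cargo, were detected in both areas, with a median of 57.0 TPM in replicate 1 and 54.7 in replicate 2. The highest were Capza2, a capping protein also used on actin, at 395 and 428 TPM, Dctn6 at 196 and 222 and Dctn3 at 132 and 153, and the lowest was Actr1b, an actin-related filament subunit, at 26.2 and 19.8. Of the 12 dynein regulators and adaptors, 10 were detected, led by Pafah1b1 (LIS1) at 134 and 106 TPM, Hook1 at 71.0 and 75.8 and Bicd1 at 72.2 and 61.7. The lowest of these was Ninl at 0.25 and 0.01. All 15 kinesin cargo adaptors were detected, from Hap1 at 2.45 and 2.41 TPM to Fez1, a kinesin-1 adaptor, at 282 and 343, with Arl8b, the lysosomal small GTPase, at 102 and 106 and Spag9 (JIP4) at 94.1 and 101.

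Spread between the areas was next set against all genes. Of the 47 motor genes with 10 or more summed counts, 5 (10.6%) differed more than 1.5-fold in TPM + 1, where 13.1% of the 16479 named genes tested did, so the motor genes were near the background. Klc2 was higher in replicate 1 (log2 ratio of replicate 2 over 1 of -0.97), as was Kif24 (-0.67). Kif19a (0.70), Dynlt1f (0.61) and Dync2li1 (0.61) were higher in replicate 2. On the longest-transcript scale Klc2 and Kif24 no longer differed by that much and Kif19a, Dynlt1f and Dync2li1 still did.

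An exact binomial test of the rounded counts against the library totals, adjusted by Benjamini-Hochberg over all 16479 genes, put 23 of the 47 motor genes (48.9%) beyond counting error at 0.05, against a background of 47.7%. It compares 2 libraries and not conditions, and amplified reads are not independent molecules: with all counts divided by 10, none of the 47 and 0.698% of all genes passed. Of the 23 genes, 14 were higher in replicate 1 and 9 in replicate 2. Kif1b (25923 and 22602 counts, adjusted p = 9.2e-27) and Kif1a (6281 and 5266, adjusted p = 1.4e-12) by the same exact test were among the former. Dynlt3 (4137 and 4744 counts, adjusted p = 1.7e-14) was among the latter. In TPM, 6 of the 8 axonal kinesins were higher in replicate 1, by at most 1.28-fold in TPM + 1, and 5 of the 8 dynein light chains tested were higher in replicate 2. Of the 13574 protein-coding genes with 10 or more summed counts, 6886 were higher in replicate 1 and 6644 in replicate 2, and the median log2 ratio was -0.03 over the motor genes and -0.01 over the named genes. The summed markers of granule neurons, oligodendrocytes and Purkinje cells were also higher in replicate 2. For Purkinje cells this came mostly from Gng13 (140 and 185 TPM) and Pcp2 (91.1 and 158), while Itpr1 went the other way (4.95 and 3.81). The sums of red blood cells, Bergmann glia and astrocytes, microglia, inhibitory neurons, and endothelial and mural cells were higher in replicate 1. Of the endothelial and mural markers, 4 were higher in replicate 1, led by Ly6c1 (141 and 120 TPM). The other 2, Acta2 (0 and 6.35) and Pdgfrb (0.43 and 0.67), were higher in replicate 2. In the lists of Bergmann glia and astrocytes, of microglia and of inhibitory neurons, 5 markers each were higher in replicate 1 and 1 in replicate 2. The part of these cells in the differences of the motor genes was not tested.

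**Figure D5:**
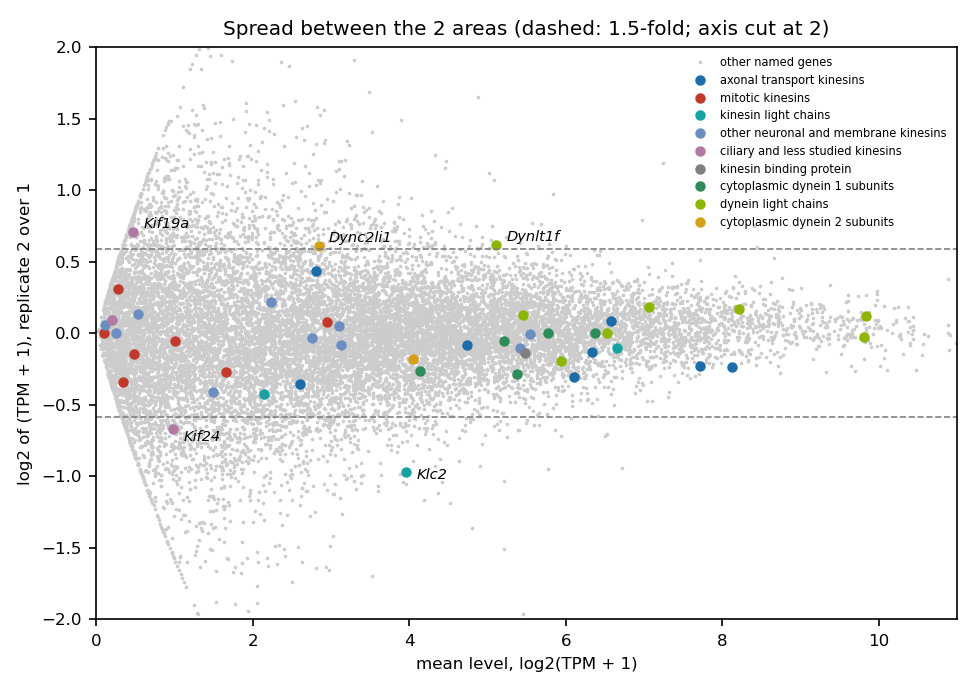
Log2 ratio of TPM + 1 in replicate 2 over replicate 1 (vertical) by mean level, log2(TPM + 1) (horizontal), for the motor genes tested, coloured by role, and the other named genes (grey), with dashed lines at 1.5-fold and the vertical axis limited to 2 on either side. Klc2, Kif24, Kif19a, Dynlt1f and Dync2li1 are the 5 motor genes outside the dashed lines.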

How the data were processed

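RNA from 2 laser-captured areas of the granule layer was measured in 1 library each. Per the file headers, the deposited gene and transcript tables hold expected counts, which share reads among transcripts and need not be whole, TPM and FPKM values normalized by the authors for length and library total, a percent giving each transcript's share of its gene, and score columns with the posterior SD of the count and the bounds of a TPM interval. The deposited notes name build mm10 with GENCODE M4 as annotation. The sources used here do not give the aligner, the counting program, the use of strand or the level of the TPM interval. Depth was 19962271 and 19261911 counts on annotated genes, so 3 counts, the limit that a count of 0 allows, equal 0.150 and 0.156 counts per 1000000.

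Names were read from the M21 release of GENCODE (GRCm38, which is mm10) for 42462 of 43346 gene IDs. The members were found by symbol alone, but the rule and the lists were set with earlier results of these data known. Every member of the axonal, mitotic, light chain and dynein lists was named, with all detected members of the other lists and the 3 highest and the lowest of each pathway list, while marker lists are given as sums. A gene was detected with TPM of at least 1 and 5 counts in each area. Levels were compared as log2(TPM + 1). Spread was called above 1.5-fold in TPM + 1 for genes with 10 or more summed counts, and counting error by an exact binomial test, two-sided, of rounded counts at an adjusted p of 0.05 (Benjamini-Hochberg). The test was checked on simulated counts. The alternatives were other pseudocounts, filters, units, lists and lengths, TMM factors from edgeR 4.0.16 and leaving out each area. Python 3.11.15 with pandas 2.3.3, scipy 1.17.1 and matplotlib 3.10.9 was used. Start regions were read from RefSeq for GRCm38.p6 and searched as text. Spike-in and control rows were left out of the totals.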

Additional observations from a re-analysis of the deposited data

Results flagged for a closer look

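A pseudogene outside the protein-coding motor genes held reads. Dynlt1-ps1, a processed pseudogene of the Dynlt1 light chains, had 211.9 estimated counts in replicate 1 and 248.83 in replicate 2, above the 3 counts that an observed 0 allows, and stood at 50.9 and 61.5 TPM. In TPM that was above the coding gene Dynlt1f in both areas, but Dynlt1f had more estimated counts, 318 in replicate 1 and 480 in replicate 2. Whether these reads came from the pseudogene or from the near-identical Dynlt1 genes was not tested. The antisense gene Kif16bos had 6 counts and 0, and the pseudogenes Kif22-ps, Kif4-ps and Kifc5c-ps had none.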

How the results depend on the processing

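The axonal minus mitotic difference, 5.05 in log2(TPM + 1), had the same sign in every alternative run. Its size moved by more than the spread between areas with pseudocounts of 0.1 (7.12) and 5 (3.34), posterior mean TPM (4.80), FPKM (4.86), TPM rescaled over protein-coding genes (5.48), list medians in place of means (6.10), Klc1 and Klc2 (4.98) or the dynein 1 subunits (4.95) added to the axonal list, the mitotic list without Kif4 and Kif2b (4.94) or with Kifc1 and Cenpe (5.10), and only members with 10 or more counts (4.65). Without 1 area it was 5.02 to 5.08, and on the longest-transcript scale, added after the data were seen, 5.02. Detected members numbered 29 to 45 under other rules, against 36 of 59 (61.0%) under the main rule, which 50.4% of all protein-coding genes met. Shares of all protein-coding genes under the other rules were not computed.

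Members over 1.5-fold apart numbered 8 with a pseudocount of 0.1 (26.7% of all genes), 1 with a pseudocount of 5 (Klc2; 1.77%), 3 with 100 or more summed counts (8.3%) and 3 on the longest-transcript scale (14.5%), against 5. With no filter there were 6, adding Dynlrb2 (6.76%). Counts scaled by TMM factors also gave 5 (16.7%) but not the same genes, with Kif11 and Kif20a in place of Klc2 and Kif24. With counts divided by 10, 0 members passed the exact binomial test at an adjusted p of 0.05, against 23. On the longest-transcript scale 7 of the 10 paralog shares tried moved by more than the spread between areas, and with posterior mean TPM 0 of 10 did. Of the leading transcripts' shares, 5 of 19 moved with posterior mean TPM. The order of Kif5b and Kif5c, and the sizes of the Kif1a, Klc2, Dynll1 and Dynlt1c values, depended on the transcript length used. No paired analysis was possible because the design has 1 group.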
